A study of Rattus norvegicus with 65 samples.

Results

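The genes encoding vasopressin (Avp) and oxytocin (Oxt) and the receptors Oxtr and Avpr1a were followed in the hypothalamus of 65 male Wistar rats. These 4 genes were taken by name from the 38513 genes of a count table, and each library held the RNA of 1 rat. Rats of the treatment and control groups were made obese by 6 weeks of high-fat diet, and tissue was collected 4 weeks after the intervention and after 10 h of fasting. RYGB (labelled Bypass) was a Roux-en-Y gastric bypass, which reroutes the upper gut, in 14 rats. Sham rats (n = 11) had a control operation, and BWM rats (body weight-matched, n = 7) were sham-operated and food-restricted to follow the weight of the RYGB rats. By the end of the study, the paper reports, BWM rats weighed more than RYGB rats. Lean rats (n = 6) are known here only by that label, and none of the diets or times given here is stated for them. The paper lists a starting weight for a low-fat-diet-only group without saying whether it is the lean group. In the hormone arm, 5 rats received liraglutide, a GLP-1 receptor agonist, at 0.4 mg/kg per day by injection, and 4 received PYY3-36, a gut peptide, at 0.1 mg/kg per day from an implanted pump. A further 10 rats received PYY3-36 + liraglutide, and 8 received saline by both routes. Apart from the restricted BWM rats, the obese animals chose between a high-fat and a low-fat diet. The study ran in 2 experimental periods, called batches. Batch A held 37 rats (11 RYGB, 5 sham, all 7 BWM, all 6 lean, 3 saline, 5 PYY3-36 + liraglutide) and batch B held 28 rats (3 RYGB, 6 sham, 5 saline, all 5 liraglutide, all 4 PYY3-36, 5 PYY3-36 + liraglutide).

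Vasopressin and oxytocin are closely related peptides. Both are made mainly by magnocellular neurons of the paraventricular and supraoptic nuclei, whose axons release them into blood in the posterior pituitary, and by smaller parvocellular neurons that project within the brain. Vasopressin is best known for water balance and blood pressure, oxytocin for birth, lactation and social behavior, and oxytocin neurons of the paraventricular nucleus also project to hindbrain areas that limit meal size. Some neurons of the suprachiasmatic nucleus, the circadian clock, make vasopressin as well. Oxtr, the oxytocin receptor, and Avpr1a, the main brain vasopressin receptor, both act mainly through G proteins of the Gq class and phospholipase C.

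In the Rnor_6.0 assembly Oxt lay on the plus strand of chromosome 3 (chr3:123106694-123107534) and Avp on the minus strand (chr3:123117482-123119460). The pair faced each other tail to tail across 9947 bases. Oxtr lay on chromosome 4 (chr4:144399326-144417598) and Avpr1a on chromosome 7 (chr7:67341366-67345290), both on the minus strand. Because the levels of the peptide genes moved together across rats while their promoters differ in letters, the 250 bases before each start are shown 5′ to 3′, from RefSeq on assembly GRCr8. Capitals mark TGACC on either strand (GGTCA when read on the shown strand), the core of a nuclear receptor element, and CANNTG, the E-box bound by basic helix-loop-helix factors such as the clock proteins. The Oxt promoter was on the plus strand (chr3:138235504-138235753) and the Avp promoter on the minus strand (chr3:138248523-138248772).
Oxt: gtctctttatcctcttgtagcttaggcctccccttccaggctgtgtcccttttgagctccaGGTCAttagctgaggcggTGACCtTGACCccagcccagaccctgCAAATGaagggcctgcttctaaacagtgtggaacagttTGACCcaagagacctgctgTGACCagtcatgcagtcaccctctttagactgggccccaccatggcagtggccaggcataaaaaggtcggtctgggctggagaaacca
Avp: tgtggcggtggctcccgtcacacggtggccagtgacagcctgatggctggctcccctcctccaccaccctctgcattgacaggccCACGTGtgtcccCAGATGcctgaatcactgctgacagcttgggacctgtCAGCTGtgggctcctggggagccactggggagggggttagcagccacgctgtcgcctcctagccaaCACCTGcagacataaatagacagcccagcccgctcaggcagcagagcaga
TGACC occurred 5 times before Oxt, with first bases 189, 171, 165, 107 and 88 bases before the start, and 0 times before Avp. Of 33469 rat promoters of the same length, 35.4% held TGACC at least once and 0.0508% held it at least 5 times. CANNTG occurred 4 times before Avp, with first bases 165, 153, 116 and 50 bases before the start, and 1 time before Oxt. Of the promoters, 65.5% held it at least once. The share with 4 or more was not computed, so how unusual the count of Avp is cannot be told. These are matches of letters and no protein binding was measured.

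The libraries held 20041010 to 36539941 counts on genes (median 27379945). Levels are given as CPM, the rounded counts as a rate per library total after scaling by the trimmed mean of M values (TMM). The dissection was checked with marker genes, which were chosen with earlier results of these data known. Otp, a transcription factor of developing and adult paraventricular and supraoptic neurons, was between 0 and 0.218 CPM in 9 libraries and at 1.04 CPM or more in the other 56. These 9 were BWM replicate 1, lean replicate 2, liraglutide replicate 3, PYY3-36 + liraglutide replicate 8, PYY3-36 replicate 2, saline replicate 4 and sham replicates 2, 6 and 10, so 3 of 11 sham rats and 0 of 14 RYGB rats were among them. The limit of 0.5 CPM was set after seeing the data, and these libraries are called Otp-poor. Otp was at 0 counts in 5 of the 9 and in 0 of the other 56. Sim1 (a second factor of these neurons) was at 0 in 2 and 0, Six6 (a factor of the suprachiasmatic region) in 6 and 1. Hcrt (orexin of the lateral hypothalamus) was at 0 in 2 and 0. Six6, Lhx1 and Rgs16 of the suprachiasmatic list had lower medians in the 9. Vip (10.7 against 7.39 CPM), Grp (4.75 against 3.69 CPM) and Prok2 (0.606 against 0.246 CPM) of that list had higher ones. Among markers of other nuclei, Npy (37.6 against 13.9 CPM) and Sst (225 against 159 CPM) had higher medians in the 9, and the rest lower ones. The summed level of 12 of 12 markers of other hypothalamic nuclei was 114 to 460 CPM in the 9 and 154 to 7139 CPM in the 56. All 6 striatal markers summed to 253 to 4137 CPM in the 9 (median 1119) and 118 to 1964 CPM in the 56 (median 244). All 5 cortical markers summed to 27.5 to 1825 CPM (median 303) and 36.3 to 908 CPM (median 78.3). The part of these differences in the results was not tested, and each comparison was therefore also made without the 9 libraries. In whole tissue, fewer cells of a type and less RNA per cell cannot be told apart.

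Avp and Oxt were among the most variable genes of the hypothalamus. Avp ran from 0.519 CPM in BWM replicate 1 to 2627 CPM in RYGB replicate 11, a 5064-fold range (median 282 CPM). Oxt ran from 0.0549 CPM, a single count, in sham replicate 6 to 2980 CPM in saline replicate 6 (median 407 CPM). In the latter rat Oxt was the 11th and Avp the 13th most abundant gene of the library. Within group and batch, the SD of log2(CPM + 1) was 2.98 for Avp and 2.90 for Oxt, ranks 2 and 4 of the 21871 genes tested, whose median SD was 0.264. The receptors were steadier, with SDs of 0.634 for Oxtr (rank 1456) and 0.415 for Avpr1a (rank 4398). Without the 9 libraries the SDs were 2.02, 1.79, 0.613 and 0.331, and Avp and Oxt ranked 12th and 16th.

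The low peptide values fell mostly in the Otp-poor libraries. In those 9, Avp was 0.519 to 5.85 CPM and Oxt 0.0549 to 28.4 CPM, whereas the other 56 held 2.42 to 2627 CPM of Avp and 0.933 to 2980 CPM of Oxt. The ranges overlapped because of a few rats, among them lean replicate 5 with 2.42 CPM of Avp, 0.933 CPM of Oxt and 1.18 CPM of Otp. Avp was below 10 CPM in 11 libraries and Oxt in 8, and all 8 were low in both. The receptors differed less, with Oxtr at 2.38 to 7.10 CPM in the 9 and 1.15 to 18.4 CPM in the 56. Avpr1a was at 0.110 to 2.69 CPM in the 9 and 0.939 to 4.85 CPM in the 56, so both receptors were still detected in every library.

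Per kilobase of exon, the median level was 762 CPM for Oxt and 482 CPM for Avp, against 1.57 CPM for Avpr1a and 1.04 CPM for Oxtr. On this scale Oxt ranked 31st and Avp 88th of 38513 genes, while Avpr1a ranked 14022nd and Oxtr 15115th. The peptide mRNAs were thus among the most abundant of the tissue and the receptor mRNAs were not. Fractional counts, which arise where a read is shared between places, occurred for Avp in 37 libraries and for Oxt in 32, for Oxtr in 2 and for Avpr1a in 0 (whole meant within 1e-06 of an integer). The 2 peptide genes have similar sequences, so their split of shared reads is uncertain.

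**Figure D1:**
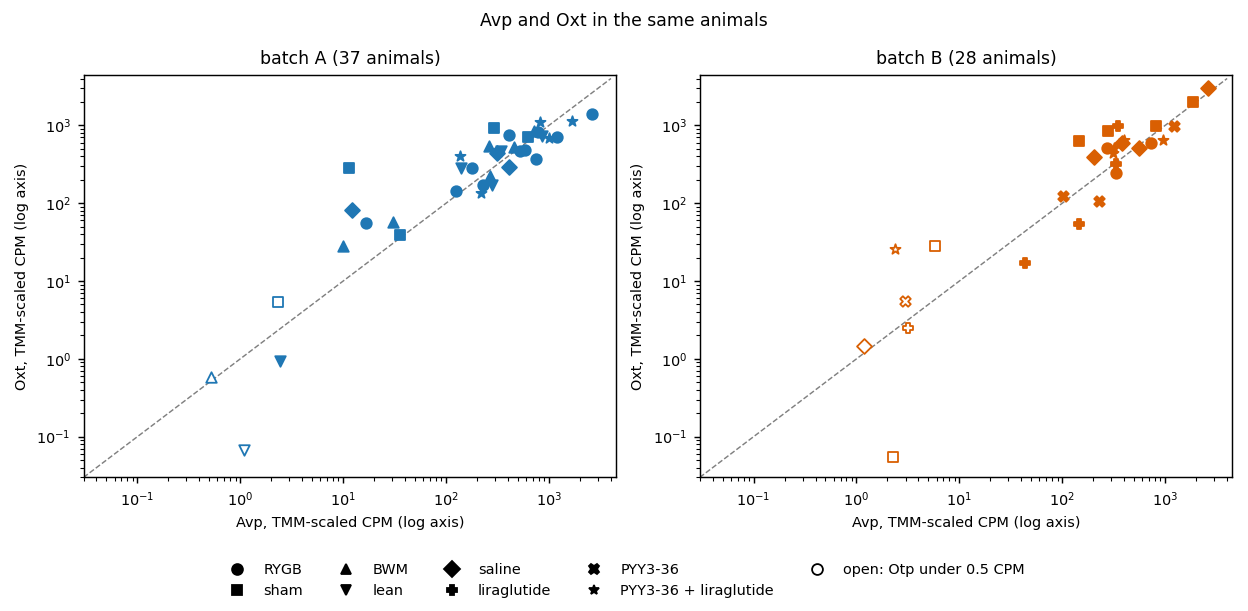
Oxt against Avp in each rat, both in CPM on log axes, with batch A left and batch B right, a marker for each group, open markers for libraries with Otp under 0.5 CPM and a dashed line for equal levels. The points of both batches follow the line from under 1 CPM to over 1000 CPM, and the open markers sit at the low end.

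Avp and Oxt rose and fell together from rat to rat. After group means were removed within batch, log2(CPM + 1) of the pair correlated at r = 0.93 in batch A (n = 37, rho = 0.91) and r = 0.94 in batch B (n = 28, rho = 0.91), each with a two-sided permutation p of 1e-05, the smallest that 100000 resamples can give. Adjusted over the 12 correlations among the 4 genes in both batches, p was 6e-05. Without the 2 rats farthest from the median, r was 0.90 and 0.93. Without the Otp-poor libraries, r was 0.88 (n = 34) and 0.81 (n = 22), with adjusted permutation p of 0.00012 and 0.0003. The ratio of Oxt to Avp had a median of 1.15, and in 46 of 65 rats the 2 genes were within 2-fold of each other. The ratio was lowest in sham replicate 6 (0.0244, from 1 count of Oxt) and highest in sham replicate 1 (24.5, with 280 CPM of Oxt and 11.4 CPM of Avp). Oxt exceeded Avp in 33 of the 56 other libraries. These included all 8 sham rats and 6 of 14 RYGB rats, counts chosen after their values were seen. The lowest sham ratios were 1.08 in batch A and 1.05 in batch B. Oxt was the higher in 5 of 6 BWM, 2 of 5 lean, 1 of 4 liraglutide and 1 of 3 PYY3-36 rats. In batches A and B it was higher in 2 of 3 and 3 of 4 saline rats, and in 2 of 5 and 3 of 4 rats of the combination.

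**Figure D2:**
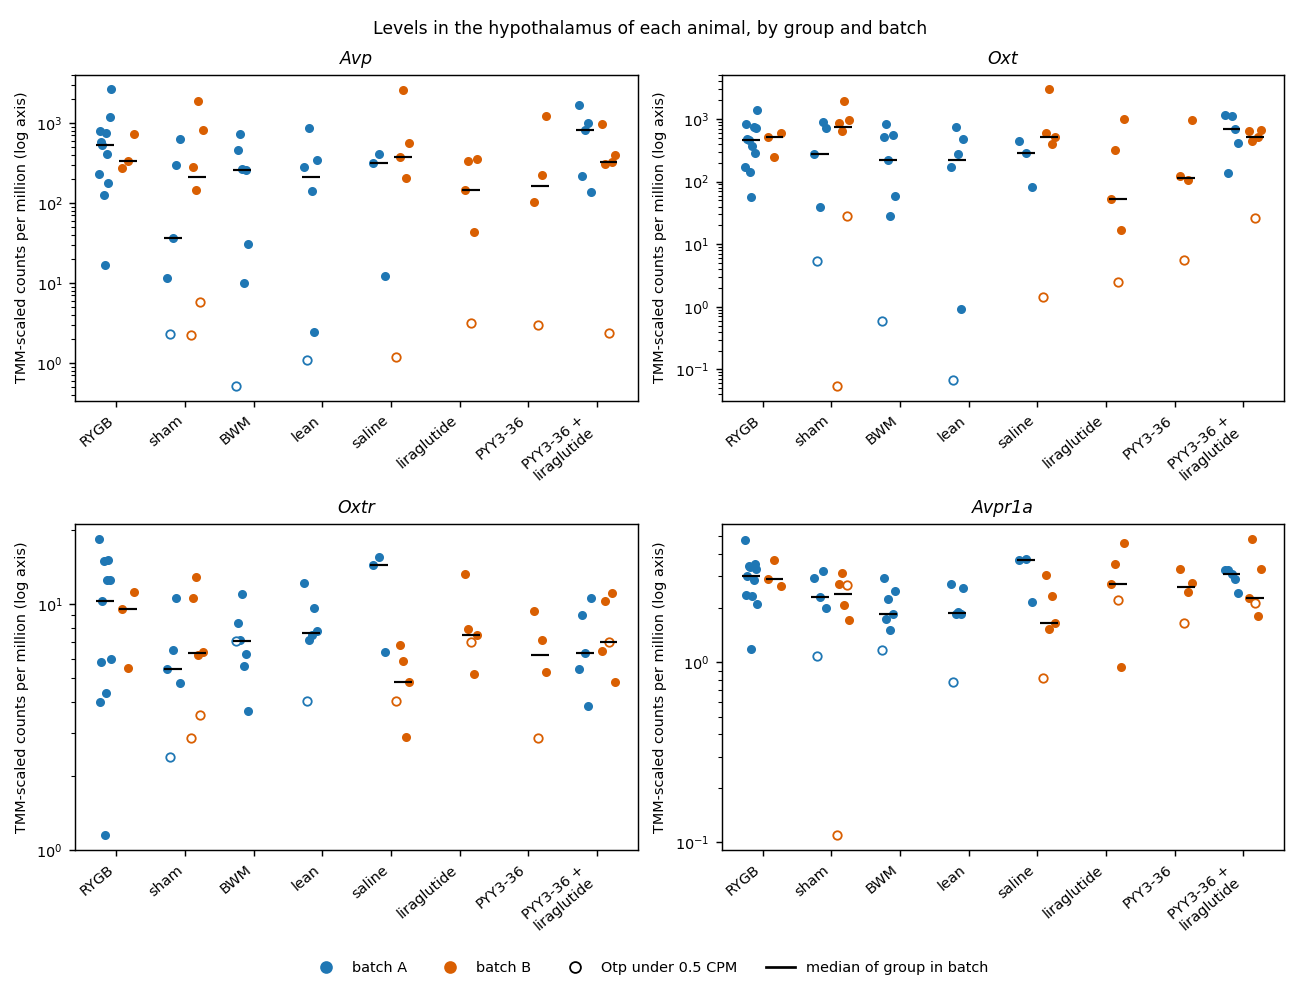
CPM on a log axis in each rat for Avp, Oxt, Oxtr and Avpr1a by group, batch A blue and batch B orange, open points for Otp under 0.5 CPM and a black line at the median of each group in a batch. The peptide genes span orders of magnitude within nearly every group, the receptors far less, and the ranges of the groups overlap in every panel.

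Group levels of Avp overlapped throughout. In RYGB rats Avp was 16.6, 524 and 2627 CPM in batch A (lowest, median, highest) and 275, 334 and 734 CPM in batch B. In sham rats of batch A the 5 values were 2.31, 11.4, 36.0, 295 and 629 CPM, and in the 6 of batch B the lowest, median and highest were 2.25, 212 and 1882 CPM. RYGB rats had no value as low as the 3 Otp-poor sham rats (2.25, 2.31 and 5.85 CPM), and 13 of 14 were above the sham median of their batch. BWM rats held 0.519, 259 and 717 CPM of Avp and lean rats 1.08, 211 and 861 CPM. Saline rats held 12.2, 313 and 406 CPM in batch A and 1.18, 204, 378, 560 and 2579 CPM in batch B. Under liraglutide the 5 values were 3.17, 43.7, 146, 331 and 349 CPM, a range that lay inside that of saline, and 0 of 5 were above the saline median of the batch. PYY3-36 gave 2.94, 102, 225 and 1215 CPM, and the combination gave 138, 220, 813, 994 and 1673 CPM in batch A and 2.35, 309, 321, 396 and 957 CPM in batch B. By median over both batches the order was RYGB, PYY3-36 + liraglutide, saline, BWM, lean, PYY3-36, liraglutide and sham (466.5 down to 145 CPM), and each neighbor's range overlapped the next.

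Oxt spread as widely as Avp but in another order of groups. RYGB rats held 55.8, 463 and 1420 CPM of Oxt in batch A and 248, 509 and 598 CPM in batch B. Sham rats held 5.42, 38.8, 280, 707 and 912 CPM in batch A, and 0.0549, 746 and 1971 CPM (lowest, median, highest) in batch B. The sham group thus had both the lowest Oxt value of all rats and the highest group median, 637 CPM. Oxt was 0.584, 222 and 847 CPM in BWM and 0.0673, 224 and 734 CPM in lean rats. In saline rats it was 81.1, 289 and 441 CPM in batch A and 1.45, 397, 512, 597 and 2980 CPM in batch B. Liraglutide rats held 2.52, 16.9, 53.7, 319 and 991 CPM, the lowest group median, and 1 of 5 was above the saline median. PYY3-36 rats held 5.60, 107, 125 and 972 CPM. With the combination Oxt was 137, 407, 698, 1108 and 1142 CPM in batch A and 25.9, 445, 507, 646 and 658 CPM in batch B. The order of medians was sham, PYY3-36 + liraglutide, RYGB, saline, lean, BWM, PYY3-36 and liraglutide, again with overlapping neighbors.

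Oxtr stayed within 1.15 to 18.4 CPM, and both ends were RYGB rats of batch A, replicate 6 and replicate 1. RYGB values were 1.15, 10.3 and 18.4 CPM in batch A and 5.47, 9.56 and 11.2 CPM in batch B. RYGB replicate 6 also had the lowest Avp, Oxt and Avpr1a of its group, and among the 56 libraries it had the highest sums of choroid plexus (3615 CPM) and cortical (908 CPM) markers, whose part in its values was not tested. Sham rats held 2.38, 4.76, 5.44, 6.50 and 10.6 CPM of Oxtr in batch A and 2.85, 6.31 and 12.8 CPM in batch B. BWM rats held 3.67, 7.10 and 10.98 CPM and lean rats 4.04, 7.64 and 12.2 CPM. Saline rats differed by batch, with 6.39, 14.5 and 15.6 CPM in batch A and 2.88, 4.03, 4.84, 5.84 and 6.80 CPM in batch B. Oxtr was 5.19, 7.03, 7.51, 7.93 and 13.2 CPM under liraglutide, 5 of 5 above the saline median of the batch, and 2.85, 5.28, 7.13 and 9.33 CPM under PYY3-36. The combination gave 3.83, 5.46, 6.34, 9.06 and 10.6 CPM in batch A and 4.84, 6.43, 7.02, 10.3 and 11.1 CPM in batch B. From high to low the medians ran RYGB, lean, liraglutide, BWM, PYY3-36 + liraglutide, sham, PYY3-36 and saline (9.92 to 6.12 CPM), with every neighbor overlapping.

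Avpr1a was the lowest and steadiest of the 4 genes in CPM. RYGB rats held 1.18, 3.02 and 4.80 CPM in batch A and 2.67, 2.90 and 3.71 CPM in batch B. Sham rats held 1.09, 1.998, 2.31, 2.92 and 3.20 CPM in batch A and 0.110, 2.38 and 3.15 CPM in batch B, the 0.110 CPM being 2 counts in the Otp-poor replicate 6. BWM rats held 1.17, 1.86 and 2.94 CPM and lean rats 0.774, 1.89 and 2.73 CPM, the lowest group medians. The saline values were 2.18, 3.68 and 3.73 CPM in batch A and 0.814, 1.52, 1.65, 2.35 and 3.07 CPM in batch B. Liraglutide gave 0.939, 2.23, 2.73, 3.51 and 4.58 CPM and PYY3-36 gave 1.66, 2.46, 2.75 and 3.29 CPM, of which 4 of 4 were above the saline median of the batch. The combination gave 2.42, 2.92, 3.10, 3.25 and 3.26 CPM in batch A and 1.81, 2.14, 2.28, 3.29 and 4.85 CPM in batch B. The order of medians was PYY3-36 + liraglutide, RYGB, liraglutide, PYY3-36, sham, saline, lean and BWM (3.01 to 1.86 CPM), and neighbors overlapped.

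**Figure D3:**
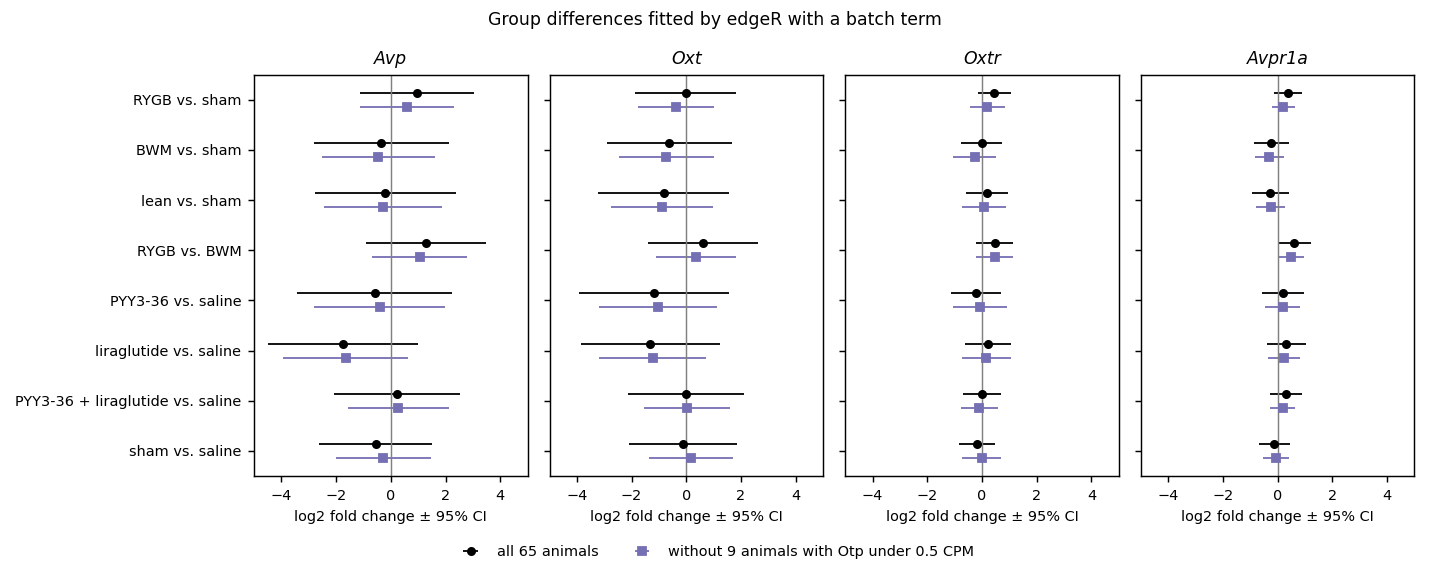
Log2 fold change with its 95% confidence interval for the 4 genes in 8 comparisons, black circles for all 65 rats and purple squares without the 9 Otp-poor libraries. The intervals of Avp and Oxt are several log2 units wide and cross 0 in every comparison, and those of the receptors are narrower.

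The comparison of RYGB with sham asks whether bypass surgery alters hypothalamic expression. Avp was 0.94 log2 units higher in RYGB (SE 1.04, 95% interval -1.14 to 3.03, edgeR adjusted p = 0.570) and Oxt differed by -0.02 (SE 0.92, -1.87 to 1.82, adjusted p = 0.990, 8 of 14 above the sham median). Oxtr was 0.44 higher (SE 0.30, -0.16 to 1.05, adjusted p = 0.327, 10 of 14 above) and Avpr1a 0.38 higher (SE 0.26, -0.13 to 0.89, adjusted p = 0.316, 12 of 14 above). Thus 0 of the 4 genes passed, where 13% of all tested genes did by edgeR (2853 of 21871). DESeq2, which tested 33425 genes, called 3358. Without the 9 libraries the differences were 0.60, -0.37, 0.20 and 0.21 in the same order of genes (adjusted p 0.536 to 0.771), and 1393 genes passed. Within batch A, Avp was 1.79 (adjusted p = 0.412) and within batch B -0.22 (adjusted p = 0.959), and Oxt was 0.41 and -0.72. The test of the difference between batches gave -2.01 for Avp (SE 2.10, adjusted p = 0.795), and the other genes lay between -1.14 and 0.22. In that test 0% of genes passed by edgeR, 2268 had an unadjusted p under 0.05 and DESeq2 called 152.

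BWM against sham asks what weight loss by food restriction does without bypass. Avp differed by -0.34 (SE 1.24, adjusted p = 0.937), Oxt by -0.62 (SE 1.14, adjusted p = 0.865), Oxtr by -0.01 (SE 0.37, adjusted p = 0.993) and Avpr1a by -0.23 (SE 0.32, adjusted p = 0.814). Relative to the sham median of batch A, 4, 3, 6 and 2 of the 7 BWM rats were higher. Of all genes 0.320% passed. In RYGB against BWM, Avpr1a was 0.62 log2 units higher, or 1.53-fold (SE 0.29, interval 0.03 to 1.204), with 10 of 11 RYGB rats of batch A above the BWM median. Its unadjusted p was 0.0397 and its edgeR adjusted p 0.377, so it did not pass, and within batch A it was 0.56 (adjusted p = 0.606). Avp was 1.28 (SE 1.10, adjusted p = 0.633), Oxt 0.59 (SE 1.01, adjusted p = 0.839) and Oxtr 0.46 (SE 0.34, adjusted p = 0.566) in the same direction, with 7, 8 and 6 of 11 above, and 0.343% of all genes passed. BWM replicate 5 was rich in anterior pituitary transcripts (76706 CPM summed over 7 of 7 markers, against 0.616 to 497 CPM in the RYGB, sham and hormone groups), and 5 of those 7 markers passed in both BWM comparisons. Their part in the member genes was not tested, and in that library Avp was 9.90 CPM and Oxt 28.3 CPM.

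In lean against sham rats, Avp differed by -0.21 (SE 1.29), Oxt by -0.82 (SE 1.195), Oxtr by 0.19 (SE 0.38) and Avpr1a by -0.26 (SE 0.33), with edgeR adjusted p of 0.781 to 0.966. The numbers of lean rats above the sham median of batch A were 4, 2, 5 and 2 of 6. Here 0% of all genes passed in edgeR, while 2674 had an unadjusted p under 0.05 and DESeq2 called 5.

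The hormone arm asks whether the gut peptides, alone or together, act on the hypothalamic transcriptome. The largest shift was of Avp under liraglutide, -1.73 log2 units (SE 1.37, interval -4.48 to 1.01, edgeR adjusted p = 1), beside -1.33 for Oxt (SE 1.27, interval -3.86 to 1.21), 0.21 for Oxtr (SE 0.42) and 0.33 for Avpr1a (SE 0.36). With the Otp-poor libraries left out, Avp was -1.64 and Oxt -1.24. In that comparison 0% of genes passed, with 456 at an unadjusted p under 0.05 and 14 by DESeq2. Under PYY3-36 the differences were -0.59 for Avp (SE 1.41), -1.196 for Oxt (SE 1.37), -0.20 for Oxtr (SE 0.46) and 0.19 for Avpr1a (SE 0.38), with adjusted p of 0.788 to 0.910. Again 0% passed, with 1649 at an unadjusted p under 0.05 and 12 by DESeq2.

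Under PYY3-36 + liraglutide, Avp differed from saline by 0.23 (SE 1.14), Oxt by -0.02 (SE 1.06), Oxtr by -0.0018 (SE 0.34) and Avpr1a by 0.30 (SE 0.29), each with an edgeR adjusted p of 0.9998, and 0.00457% of all genes passed, which was 1 gene. For Oxtr that near-zero value joined opposite ones, -0.78 within batch A and 0.70 within batch B. The difference between batches was 1.48 (SE 0.66, interval 0.17 to 2.80), with an unadjusted p of 0.0273 and an edgeR adjusted p of 1.0. It did not pass, and 0% of genes did in that test (710 at an unadjusted p under 0.05, 11 by DESeq2). Avp and Oxt went the other way, from 1.65 and 1.37 within batch A to -0.91 and -0.98 within batch B, with differences of -2.56 (SE 2.26) and -2.34 (SE 2.13). Batch B held both an Otp-poor rat of the combination and an Otp-poor saline rat. All 3 hormone comparisons used the same saline rats.

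Sham against saline compares the controls of the surgical and the hormone arms. Avp was -0.55 (SE 1.03), Oxt -0.12 (SE 0.99), Oxtr -0.19 (SE 0.33) and Avpr1a -0.12 (SE 0.29), with edgeR adjusted p of 0.858 to 0.9753, and 0.0137% of all genes passed. Within batch A, Oxtr was -1.04 (unadjusted p = 0.0383, edgeR adjusted p = 0.323) and within batch B 0.54. The batches themselves differed in 40.7% of all genes, but Avp (0.33, SE 0.84), Oxt (0.38, SE 0.75), Oxtr (-0.19, SE 0.23) and Avpr1a (-0.19, SE 0.20) did not pass, with adjusted p of 0.470 to 0.786. Over the 36 tests of the 4 genes in these 9 comparisons, 0 passed in edgeR or DESeq2, and 1 had an unadjusted p under 0.05 with either tool. These intervals leave room for sizeable differences, since that of Avp in RYGB against sham ran from 0.454-fold to 8.17-fold and that of Avpr1a from 0.916-fold to 1.86-fold.

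**Figure D4:**
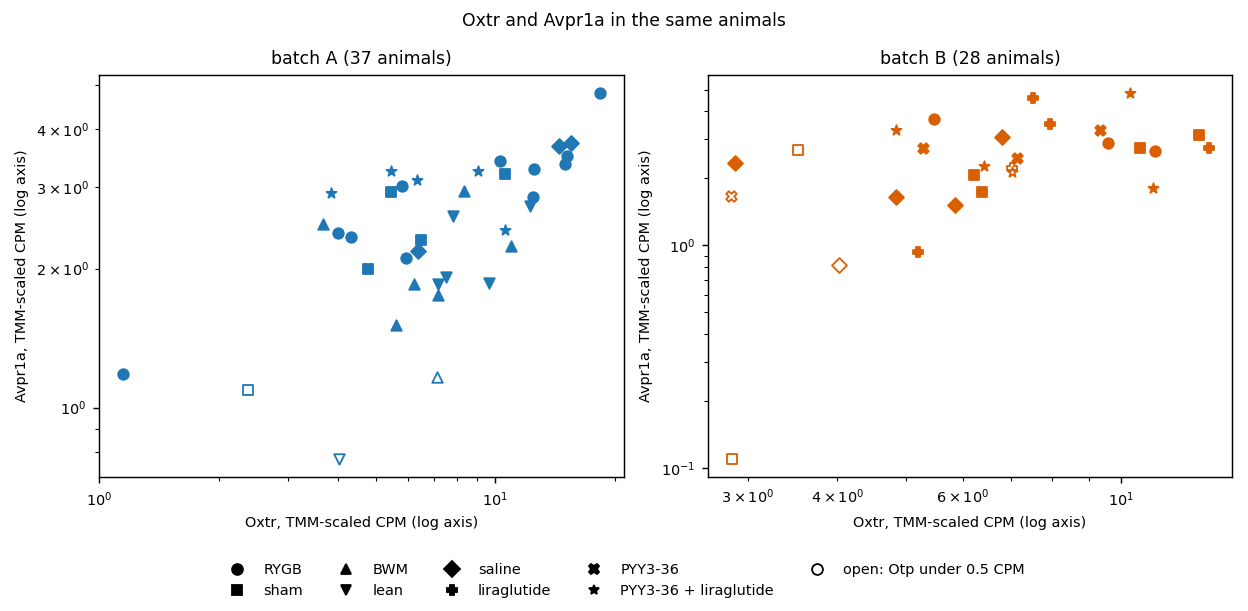
Avpr1a against Oxtr in each rat, both in CPM on log axes, with batch A left and batch B right, a marker for each group and open markers for Otp under 0.5 CPM. The receptors rise together in batch A (r = 0.73), from RYGB replicate 6 to RYGB replicate 1, and less clearly in batch B (r = 0.46).

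The receptors also varied together, but less than the peptides. In batch A, Oxtr and Avpr1a correlated at r = 0.73 (rho = 0.67, n = 37, adjusted permutation p = 8e-05 for r), and at 0.61 without the 2 rats farthest from the median, RYGB replicates 6 and 1. In batch B, r was 0.46 (rho = 0.36, n = 28, adjusted permutation p = 0.0467 for r and 0.126 for rho), and it fell to 0.24 without sham replicates 6 and 8, so the relation there rested on those rats. In the 56 other libraries it was 0.74 in batch A (adjusted permutation p = 0.00036) and 0.24 in batch B (adjusted permutation p = 0.565). Between a peptide and a receptor, r ran from 0.24 for Oxt and Oxtr in batch A to 0.66 for Oxt and Avpr1a in batch B. Of those 8 correlations, 6 had an adjusted permutation p for r between 0.00547 and 0.0467, and the other 2 (Avp and Oxt with Oxtr in batch A) had 0.0698 and 0.0949. For rho, only Oxt with Avpr1a in batch B passed (adjusted permutation p = 0.0382), and the other 7 had 0.12 to 0.435. In those 56 libraries all 8 lay between -0.17 and 0.35, with adjusted permutation p of 0.332 to 0.929.

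Among all 21871 genes, those closest to Avp across the 65 rats were Oxt (r = 0.93), Trh (thyrotropin-releasing hormone, 0.84), LOC102553173 (0.83), Otp (0.82) and C1ql4 (0.79). For Oxt they were Avp, Trh (0.89), Cbln1 (a synaptic organizer, 0.83), Gal (the peptide galanin, 0.82) and Gpx3 (0.80). In the 56 other libraries r was 0.87 for Avp and Oxt. For the other neighbors of Avp it was lower, at 0.64 for Trh, 0.66 for LOC102553173, 0.60 for Otp and 0.56 for C1ql4. For those of Oxt it was 0.73 for Trh, 0.46 for Cbln1, 0.55 for Gal and 0.38 for Gpx3. Oxtr was closest to Fndc9 (0.85), Usp11 (a deubiquitinase, 0.82), Sema4a (a semaphorin, 0.82), LOC108350674 (0.81) and Wdr6 (0.81), all of which stayed at 0.80 to 0.87 in the 56 libraries. Avpr1a was closest to Rftn1 (raftlin, 0.79), Plch1 (phospholipase C eta 1, 0.77), LOC108348983 (0.76), Ift52 (intraflagellar transport, 0.75) and Gabrq (a GABA receptor subunit, 0.75), which were at 0.65 to 0.78 in the 56. These are correlations of log2(CPM + 1) after batch and group means were removed, given as descriptions, and all genes of a rat share its library and dissection.

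The other members of the receptor family were nearly silent. Avpr1b, the vasopressin receptor of pituitary corticotrophs, had at most 8.5 counts in all other libraries and 168 counts (6.03 CPM) in BWM replicate 5, the library with 12880 CPM of prolactin (Prl). Avpr2, the renal receptor, had at most 2 counts in any library and 0 counts in 58. Neither passed the filter on low counts, so 0 of these 2 genes were tested.

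Genes that act around the 4 were described from lists chosen with earlier results known. Of 9 transcription factors and regulators of these neurons, 0 passed in RYGB against sham with all rats, where the list's median was 0.35 log2 units and that of all genes -0.02. Otp was 1.52 higher (SE 0.71, edgeR adjusted p = 0.136) and Sim1 1.16 higher (SE 0.62, adjusted p = 0.201), and 1.13 and 0.81 without the Otp-poor libraries. Creb3l1, a factor that drives Avp, was 0.42 (SE 0.32, adjusted p = 0.396), and Caprin2, which binds Avp mRNA, was 0.11 (SE 0.16, adjusted p = 0.659). Arnt2, the Sim1 partner, was 0.29 (adjusted p = 0.0537) and rose by 0.38 without those libraries (adjusted p = 0.0181), where 6.33% of all genes passed. Of 12 processing and granule proteins and 9 peptides of the same neurons, 0 passed with edgeR in any of the 8 group comparisons, in 3 of which 0% and in RYGB against sham 13% of all genes passed, and Pdyn, the dynorphin precursor of vasopressin neurons, was -0.21 in RYGB (SE 0.32, adjusted p = 0.688).

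The list downstream of both receptors, 16 genes of Gq signalling, held 4 that passed in either direction in RYGB against sham, where 13% of all genes did, and its median was 0.07. Of these, 3 rose. Gnaq and Gna11, the alpha subunits that couple Oxtr and Avpr1a to phospholipase C, rose by 1.18 (SE 0.27, edgeR adjusted p = 0.00429) and 0.62 (SE 0.20, adjusted p = 0.0340), and Itpr2, an inositol trisphosphate receptor, rose by 0.50 (SE 0.15, adjusted p = 0.0215). Without the Otp-poor libraries Gnaq, Gna11 and Itpr2 passed again (1.26, 0.76 and 0.52) and Prkca rose by 0.38 (adjusted p = 0.0487). In that fit 6.33% of all genes passed. None of the 16 passed in the other 7 group comparisons, in which 0% to 0.343% of all genes did. In batch B against batch A, where 40.7% of all genes passed, the lists had shares near or below that. Of the 16, 7 were lower, among them Gnaq (-0.58) and Plcb2 (-0.63), and 4 of the 12 processing genes were higher, among them Cpe (carboxypeptidase E, 0.40). In the peptide list Crh (0.91), Penk (0.71) and Apln (0.39) were higher in batch B. Crh alone of these passed without the Otp-poor libraries, where 41.4% of all genes did. In the list of regulators, Pou3f2 was higher (0.33) and Caprin2 lower (-0.47).

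Some markers of other regions and cells passed in the same comparisons. In RYGB against sham, beside 13% of all genes, they were Lhx1 (suprachiasmatic, 1.66) and Kl (choroid plexus, 2.47), 1 of 6 and 1 of 7 of their lists. Markers of striatum, cortex, thalamus and habenula, meninges, pituitary and other hypothalamic nuclei had 0 called there, with list medians from -1.25 for striatum to 1.27 for meninges. In BWM against sham, where 0.320% of all genes passed, 2 of 7 choroid plexus markers did, with a list median of 2.31. They were Kl (2.31) and Aqp1 (4.12, both with an edgeR adjusted p of 0.0286). Without the Otp-poor libraries 3 of 7 choroid plexus markers passed there, beside 0.540% of all genes. In RYGB against sham without those libraries 2 of 7 passed, beside 6.33% of all genes. In the combination against saline, Gpr151, a habenula marker, was the gene that passed (-7.73 log2 units, edgeR adjusted p = 0.00266), with 91.7 CPM in saline replicate 7. The part of these markers in the values of Avp, Oxt, Oxtr and Avpr1a was not tested.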

How the data were processed

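RNA from dissected whole hypothalami of 65 rats was sequenced by the authors. Per the labels and the study's methods, they trimmed reads with cutadapt, aligned them with STAR 2.7.2b to Rnor_6.0 and counted them with featureCounts 1.6.4, strand-specifically and with fractions for reads assigned to several places. What they deposited is a table of estimated counts, 1 column per library and not normalized. They were rounded (totals moved by at most 0.00104%) and filtered with edgeR's filterByExpr (at least 10 counts, total 15), which left 21871 of 38513 genes.

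Groups came from the labels, 1 rat per library, so p-values measure the spread between rats. Quasi-likelihood tests of edgeR 4.0.16 (limma 3.58.1, R 4.3.3) were fitted on all 65 libraries with terms for group and batch, or with 1 term per group and batch for differences between batches, and p-values were adjusted over all tested genes at 0.05 by Benjamini-Hochberg. Alternatives were DESeq2 1.42.0, other scaling, no filter, no batch term, contrasts within each batch, only the compared groups and a replicate block. Others were leaving out libraries, and correlations with another pseudocount. The contrasts within a batch came from the fit with 1 term per group and batch on all 65 libraries. Leave-one-out fits kept the gene filter and dispersion trend of the full fit. Correlations used log2(CPM + 1), with labels permuted 100000 times (Python 3.11.15, numpy 2.4.6, scipy 1.17.1, pandas 2.3.3), and figures used matplotlib 3.10.9. The fits were tested on simulated data in which every gene had the same dispersion. That test does not cover genes as variable as Avp and Oxt. The 4 genes and all lists were chosen with earlier results of these data known. Named throughout were the 4 genes, Avpr1b, Avpr2, Sim1, Otp, Creb3l1, Caprin2 and Pdyn, list members that passed the threshold, and the 5 genes most correlated with each member. Of the 4 genes' promoters, those of Avp and Oxt were read from RefSeq on GRCr8. The result of 1 list member is not reported here.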

Additional observations from a re-analysis of the deposited data

Results flagged for a closer look

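In 36 checks of the 4 genes within a group and batch of 4 to 10 rats, 5 values stood apart from the rest of their group by Dixon's criterion on log2(CPM + 1), which chance alone does for about 1 in 20. PYY3-36 + liraglutide replicate 8 held 2.35 CPM of Avp where the other 4 rats of batch B held 309 to 957 CPM, and 25.9 CPM of Oxt where they held 445 to 658 CPM. Saline replicate 4 held 1.45 CPM of Oxt against 397 to 2980 CPM. For Avpr1a, lean replicate 2 held 0.774 CPM against 1.86 to 2.73 CPM and sham replicate 6 held 0.110 CPM against 1.73 to 3.15 CPM. All 5 values came from libraries with Otp under 0.5 CPM.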

How the results depend on the processing

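Every group comparison and every difference between batches left each of the 4 genes on the same side of the threshold under the alternatives run, and the lowest adjusted p was 0.141, for Avpr1a in RYGB against sham by DESeq2 without the batch term. Under other scaling, each group's median level moved by less than the SD of that group's CPM. This limit was loose for the peptide genes, as with Avp in saline rats (SD 839.5 CPM, median 345.6 CPM). Signs of some log2 differences turned, and the cause was not tested. Among them were Avp in RYGB against sham (0.94 with all rats) and Avp under PYY3-36 (-0.59). Within batch A, Oxt became 0.41 in RYGB against sham, Avp 0.35 and Oxtr 0.24 in BWM against sham, Avp 0.48 in lean against sham, Oxt 1.37 and Avpr1a -0.10 in the combination, and Oxt 0.52 in sham against saline. Within batch B, Avp became -0.22 in RYGB against sham, Oxtr 0.33 under PYY3-36, Avp -0.91 and Oxtr 0.70 in the combination, and Oxtr 0.54 and Avpr1a 0.15 in sham against saline. With only the groups compared, Oxt was 0.016 in RYGB against sham, Oxtr 0.10 in BWM against sham and 0.034 in the combination, and Oxt 0.053 in sham against saline. Oxtr was also 0.10 in BWM against sham without the batch term in edgeR and in DESeq2, 0.0029 in the combination with no filter and 9.46e-06 there by DESeq2. Without the Otp-poor libraries Oxt was 0.018 in the combination and 0.17 in sham against saline. Without the 17 libraries with Six6 under 0.5 CPM, Avpr1a was -0.035 under PYY3-36, Oxtr -0.087 under liraglutide and Avp -0.54 in the combination.

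Replicate numbers are shared between groups but only count rats. Deviations of same-numbered rats of a batch correlated at a median of 0.0050 (87 pairs, from -0.55 to 0.63), and those of other pairs at -0.0066. A fit with the replicate block called 0 of the 4 genes. With this block Oxtr was 0.11 in BWM against sham, Avp -0.048 and Oxt 0.024 in the combination, and Avp -0.38 and Oxt -0.080 in batch B against A.

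Leaving out each rat in turn moved Avp from -0.88 to 0.15 in BWM against sham, from -1.03 to 0.29 in lean against sham, from -2.40 to 0.51 under PYY3-36, from -0.083 to 1.13 in the combination, from -1.34 to 0.47 in sham against saline and from -0.027 to 0.54 in batch B against A. Oxt moved from -0.23 to 0.25 in RYGB against sham, from -0.25 to 0.84 in the combination and from -0.52 to 0.81 in sham against saline. Oxtr moved from -0.16 to 0.10 in BWM against sham, from -0.47 to 0.033 under PYY3-36, from -0.031 to 0.38 under liraglutide, from -0.12 to 0.21 in the combination and from -0.34 to 0.019 in sham against saline. Avpr1a moved from -0.25 to 0.0051 in sham against saline and from -0.022 to 0.40 in the difference of RYGB against sham between batches.

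Among correlations, a pseudocount of 0.1 brought Avp and Oxtr in batch A past the threshold (r = 0.30). Without the Otp-poor libraries, Avp with Oxtr (-0.17), Avp with Avpr1a (-0.031) and Oxt with Oxtr (-0.026) turned in batch B. Avp with Avpr1a (0.29) and Oxt with Avpr1a (0.21) in batch A, and Oxt with Avpr1a (0.35) and Oxtr with Avpr1a (0.24) in batch B, no longer passed. The number of genes called in RYGB against sham was 2853 with all rats and 1393 without the Otp-poor libraries. The most similar libraries, RYGB replicates 1 and 9, differed beyond counting error (mean chi-square per gene 14.7), so none was counted as a duplicate. Low counts limit Avpr1a, with 2 to 188 counts per library, and counting error is small beside the spread between rats for Avp and Oxt.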
